A study of Mus musculus with 2 samples.

Results

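The circadian clock genes described here are Arntl, Clock, Per1, Per2, Per3, Cry1, Nr1d1, Nr1d2, Dbp and Tef, 10 of the 32285 genes in the single-cell count tables of mouse liver, chosen by symbol. Their RNA was compared between 1 library from WT mice and 1 library from littermates that lack miR-33 in hepatocytes (HKO, labelled AlbCRE). HKO mice carry miR-33 loxP/loxP alleles and a Cre recombinase driven by the albumin promoter, which is active in hepatocytes. Whether the deletion reached other liver cells, such as cholangiocytes, was not tested. All mice were males, were fed CD-HFD, a high-fat diet lacking choline, for 6 months from 8 weeks of age, and were fasted before end-point experiments. Each library was made from the pooled cells of 3 livers, with hepatocytes and sorted live non-parenchymal cells mixed in equal parts. The individual animals cannot be separated, so no test between genotypes could be made. Intervals are 95% and cover counting error only. The hour of collection of either pool is not given in the sources used here, and hour of collection, genotype and library cannot be told apart.

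The clock is a transcriptional feedback loop present in nearly all cells. ARNTL (also called BMAL1) and CLOCK bind E-box elements and switch on the Per and Cry genes, whose proteins return to the nucleus and repress ARNTL and CLOCK. The same E-boxes drive Nr1d1 and Nr1d2, which encode the repressors REV-ERB alpha and REV-ERB beta. These close a further loop by holding down Arntl through ROR elements. Dbp and Tef encode PAR bZIP activators that act on D-box elements and carry the rhythm to liver metabolism. In mouse liver, RNA of Arntl peaks around the time at which RNA of Nr1d1, Dbp and the Per genes is low, and the reverse holds later in the day, so the relative levels of these genes depend on the phase of the clock.

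The elements through which the loop runs were searched in RefSeq promoter windows (GRCm38.p6, 250 bases before to 50 after each start site) on both strands. They are shown as parts of the loop described above. Capitals mark the motif, and letters run 5′ to 3′ on the strand of the gene. Windows were given for 9 of the 10 genes, Per2 being without one.
Cry1, E-box CACGTG, chr10:85185101-85185122, minus strand: ccggtggtCACGTGgggtgcat
Per1, E-box CACGTG, chr11:69098775-69098796, plus strand: cccaagtcCACGTGcagggatg
Tef, E-box CACGTG, chr15:81802538-81802559, plus strand: tgtggctcCACGTGctgcagct
Arntl, REV-ERB and ROR motif AGGTCA, chr7:113207534-113207555, plus strand: cagaaagtAGGTCAgggacgga
Nr1d2, REV-ERB and ROR motif AGGTCA, chr14:18239170-18239191, minus strand: ggaagaagAGGTCAggaccgct
Per3, D-box TTANGTAA, chr4:151044808-151044831, minus strand: gcccgcggTTATGTAAcccccgcc
The E-box letters were present for 3 of the 9 genes, against 8.09% of all 27025 genes with a window. The motif AGGTCA was present for 4 of the 9 (Arntl, Clock, Nr1d2 and Per1), against 18.1% of all genes. The D-box letters, with any base at N, were present only for Per3 among the 9, against 2.72% of all genes. None of these motifs was found in the windows of Dbp and Nr1d1. The matches did not sort the genes into the arms that are compared below. A match describes letters in a window and was not tested as a binding site.

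The deleted microRNA was compared with the clock transcripts in the same way. Mature miR-33-5p is shown with its seed, bases 2 to 8, in capitals (RefSeq, GRCm38.p6, chr15:82198127-82198147, plus strand).
mmu-miR-33-5p: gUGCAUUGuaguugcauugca
Clock, 3′ UTR, GRCm38, chr5:76213150-76213174, minus strand: tctcaagtaAATGCAAaggaaaaga
Clock held the only match among the annotated 3′ UTRs of the 10 genes, of the kind 7mer-A1 (AATGCAA, capitals). It pairs with the seed except base 8 and ends in an A. The letters that pair with the whole seed are CAATGCA. Of 21039 coding genes, 15.8% had at least 1 match of AATGCAA or CAATGCA. The HKO over WT ratio of Clock in hepatocyte-like barcodes was 0.867. The libraries hold polyadenylated RNA and do not count the mature microRNA, so its deletion could not be checked with them. Srebf2, the gene that hosts miR-33, stood at 24.8 counts per 1000000 unique molecular identifiers (UMIs), written CPM below, in WT and 19.6 CPM in HKO hepatocyte-like barcodes.

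The tables hold 30078 WT and 20000 HKO barcodes with 130451427 and 52563185 UMIs. Alb, the albumin gene of hepatocytes, had a UMI in all 30078 WT barcodes and in 19999 HKO barcodes, and the barcodes at the depth of free RNA were kept apart (19954 WT and 10085 HKO). The hepatocyte-like class held 1827 WT and 3522 HKO barcodes, with 47364201 and 25050052 UMIs and a median depth of 20632 and 4268 UMIs. Alb reached 36402 and 27574 CPM in them. The class was set by depth and by the lack of markers of other cell types. The class lay in partly different clusters in the libraries. Cluster 9, led by A2ml1, held 34.7% of it in WT and 32.8% in HKO, and cluster 11, led by Gm15622 and Neat1, 33.8% and 18.9%. Cluster 8 held 13.6% in WT and 0.0568% in HKO, and cluster 10 held 5.31% and 25.6%. Named non-hepatocyte classes together held 500 WT and 1353 HKO barcodes. Of these, T and NK-like (140 and 500), endothelial-like (115 and 225) and macrophage-like barcodes (87 and 138) reached 50 in each library. All levels in CPM are UMIs of a gene summed over a class, scaled by the total of that class, and a ratio is HKO over WT.

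In hepatocyte-like barcodes the clock genes differed between the libraries in opposite directions. Arntl and Cry1 were lower in HKO, Dbp, Tef and Per3 were higher, and Clock, Per1, Nr1d1, Nr1d2 and Per2 lay within 1.5-fold. Of 7073 genes with a mean of at least 10 CPM, 2.36% were at least 1.5-fold higher in HKO and 4.30% at least 1.5-fold lower. Of the 9 clock genes above that level, 2 were higher (Dbp and Tef) and 2 lower (Arntl and Cry1), 4 in all against 6.66% of all genes. At 2-fold, 1 was higher (Dbp, against 0.353% of all genes) and 1 lower (Arntl, against 0.947%), 2 in all against 1.30%. Per3 had a mean below that level and is given by its own values. The median log2 ratio was −0.02 over all genes and 0.21 over the 9 clock genes, whose directions offset each other.

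**Figure D1:**
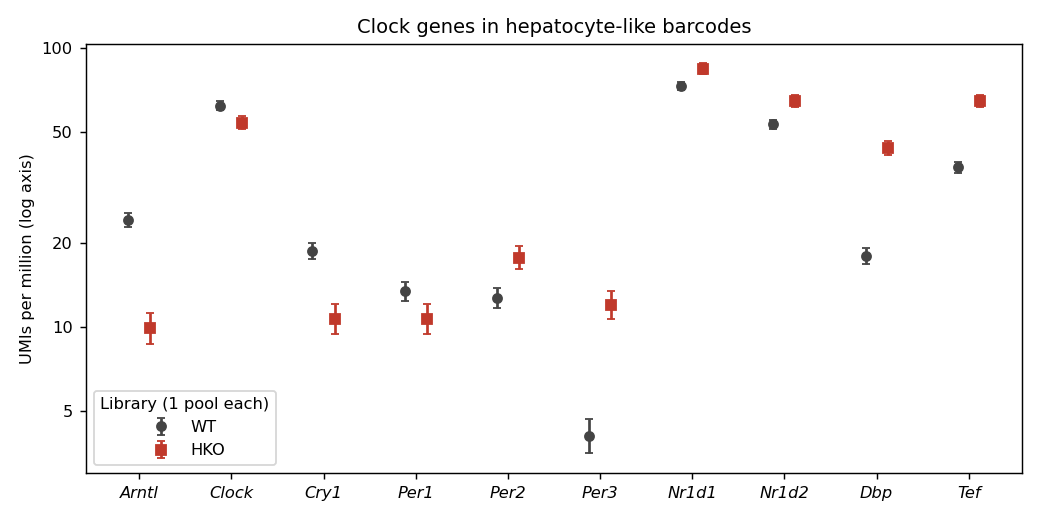
Level of each clock gene in hepatocyte-like barcodes, in CPM on a log axis, for the WT library (circles) and the HKO library (squares), with exact Poisson 95% intervals that cover counting error only. The intervals of the libraries do not overlap for any of the 10 genes, with Arntl, Clock, Cry1 and Per1 lower and the other 6 higher in HKO. The same held for 52.6% of all 7073 genes at this depth.

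Among the activators, Arntl (ENSMUSG00000055116, GRCm38 chr7:113207465-113314126, plus strand) had 1146 UMIs in WT and 248 in HKO, or 24.2 and 9.90 CPM. Its ratio was 0.409 (0.355 to 0.470), which placed it at percentile 0.297 of all 7073 genes. Clock (ENSMUSG00000029238, chr5:76209868-76304792, minus strand), which encodes the partner of ARNTL, had 2954 and 1354 UMIs. Its levels of 62.4 and 54.1 CPM gave a ratio of 0.867 (0.812 to 0.925), at percentile 24.6. Both activators were thus lower in HKO, by unequal amounts, and the Clock UMIs per Arntl UMI were 2.58 in WT and 5.46 in HKO, a 2.12-fold difference (1.82 to 2.46). Npas2, which encodes a protein that can replace CLOCK in the pair with ARNTL, stood at 14.1 CPM in WT and 2.75 in HKO. The ratio of Npas2 was 0.195 (0.150 to 0.250), although its mean was under the level set for the analysis.

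The repressors of the Per and Cry families did not share a direction. Cry1 (ENSMUSG00000020038, chr10:85131700-85185064, minus strand), a strong inhibitor of the CLOCK and ARNTL pair whose own gene also answers to REV-ERB and ROR, had 18.8 CPM in WT and 10.7 in HKO. This gave a ratio of 0.569 (0.494 to 0.653), at percentile 1.56. Per1 (ENSMUSG00000020893, chr11:69095217-69109960, plus strand) had 13.5 and 10.7 CPM, a ratio of 0.794 (0.686 to 0.917). Per2 (ENSMUSG00000055866, chr1:91415982-91459324, minus strand) had 12.7 and 17.8 CPM, a ratio of 1.40 (1.23 to 1.58). Both encode PERIOD proteins and both also respond to acute signals such as glucocorticoids. Per3 (ENSMUSG00000028957, chr4:151003652-151044665, minus strand), the remaining PERIOD gene and the one with D-box letters in its promoter window, had 193 UMIs in WT and 301 in HKO. Its levels of 4.07 and 12.02 CPM gave a ratio of 2.95 (2.45 to 3.55). The 3 Per genes therefore ran from below 1 to nearly 3-fold. Where every barcode was thinned to 1500 UMIs, the ratio of Per3 was 1.85 and that of Cry1 0.366, each more than 1.5 times from the value given here.

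The REV-ERB genes lay within 1.5-fold over the whole class. Nr1d1 (ENSMUSG00000020889, chr11:98767932-98775333, minus strand) had the most UMIs of the 10 genes, 3461 in WT and 2120 in HKO. Its levels were 73.1 and 84.6 CPM, with a ratio of 1.16 (1.10 to 1.22), at percentile 81.8 of all genes. Nr1d2 (ENSMUSG00000021775, chr14:18204054-18239127, minus strand) had 53.4 and 64.9 CPM and a ratio of 1.21 (1.14 to 1.29). Within single clusters of the class Nr1d2 was further from 1, with 1.29 (1.17 to 1.43) in cluster 9, 1.45 (1.30 to 1.60) in cluster 11, 2.14 (1.38 to 3.46) in cluster 10 and 2.96 (1.69 to 5.32) in cluster 6. Nr1d1 ran from 1.10 to 1.26 in the same clusters. Nr1d1 UMIs per Arntl UMI were 3.02 in WT and 8.55 in HKO.

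The PAR bZIP genes gave the highest ratios among the 9 clock genes with a mean of at least 10 CPM. Dbp (ENSMUSG00000059824, chr7:45705088-45710203, plus strand) had 854 UMIs in WT and 1100 in HKO, although HKO had fewer UMIs in all. Its levels were 18.0 and 43.9 CPM, a ratio of 2.44 (2.23 to 2.67) at percentile 99.9. Tef (ENSMUSG00000022389, chr15:81802421-81826863, plus strand) had 37.5 and 64.6 CPM, a ratio of 1.72 (1.61 to 1.85) at percentile 99.1. Both were higher in HKO, Dbp by more than Tef. Dbp and Nr1d1 are both driven by CLOCK and ARNTL, yet their ratios were 2.44 and 1.16. In the annotation Nr1d1 overlaps Thra and Dbp overlaps Sphk2 on the opposite strand, and Per3 overlaps Camta1 on its own strand. Whether the counting used strand is not given in the sources used here.

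Pairs of clock genes were compared within each library, where depth cancels. Dbp UMIs per Arntl UMI were 0.745 in WT and 4.44 in HKO, a 5.95-fold difference (5.05 to 7.01). Per2 per Arntl differed 3.41-fold (2.84 to 4.10) and Nr1d1 per Arntl 2.83-fold (2.44 to 3.28). Nr1d1 per Per2 differed 0.830-fold (0.726 to 0.949), and Cry1 per Arntl 1.39-fold (1.15 to 1.69). Per3 per Nr1d1 differed by 2.55-fold (2.11 to 3.07) and Tef per Nr1d1 by 1.49-fold (1.37 to 1.62).

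For a single summary the genes were set in 2 arms, and the balance of the arms was taken as the mean log2 level of Nr1d1, Nr1d2, Dbp, Tef, Per1, Per2 and Per3 minus that of Arntl, Clock and Cry1. It was −0.53 in WT and 0.85 in HKO hepatocyte-like barcodes, a difference of 1.38 on the log2 scale (1.26 to 1.5). The relative levels of the arms therefore differed between the 2 pools by more than counting error. With 1 collection per library the values give no phase in hours, and the spread between animals is unknown.

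The difference was present in 3 bins of barcode depth, which leave out the 1941 HKO barcodes under 5000 UMIs. Over hepatocyte-like barcodes of 5000 to 10000, 10000 to 20000 and at least 20000 UMIs, the ratio of Arntl was 0.471, 0.415 and 0.307. Dbp had ratios of 2.05, 2.13 and 2.42 over the same bins. The balance differed by 1.32, 1.03 and 1.57 on the log2 scale. Tef had 1.89, 1.17 and 1.62, and Per2 had 2.53, 1.13 and 1.37, so these depended more on the bin. Over 3 depth bins and 3 zones, 59 of the 60 values of the 10 genes lay on the same side of 1 as in the whole class, against 78.9% of the values of all 7073 genes, since the bins and zones are parts of that class. The exception was Clock at 5000 to 10000 UMIs, with 1.13 (0.921 to 1.38). Ratios were also taken within single clusters, a choice made after the data were seen. In clusters 9 and 11 Arntl had 0.404 (0.321 to 0.505) and 0.519 (0.421 to 0.635), and Cry1 0.710 (0.581 to 0.864) and 0.490 (0.375 to 0.632). Dbp had 2.17 (1.92 to 2.47) and 3.23 (2.63 to 3.97) in them, and Tef 1.73 (1.54 to 1.93) and 2.34 (2.11 to 2.61). Over the 4 clusters with at least 50 barcodes of the class in each library, 37 of 40 values lay on the same side of 1 as in the whole class, against 67.2% of the values of all genes. Per1 was an exception in cluster 11, with 312 and 134 UMIs and a ratio of 1.15 (0.929 to 1.41), and had 0.982 (0.764 to 1.26) in cluster 9, so its lower value over the whole class was not seen in either of the large clusters. The other exceptions were in cluster 6, where Per1 had 1 UMI in each library and Cry1 had 6 and 4. Per2 had 1.18 (0.978 to 1.43) in cluster 9 and 2.02 (1.67 to 2.44) in cluster 11.

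Liver zonation crossed the clock genes. Hepatocyte-like barcodes were split in each library into 3 equal zone groups by the share of periportal among periportal and pericentral marker UMIs, with 609 WT and 1174 HKO barcodes in each. Glul, a perivenous marker used in the split, had 412 CPM in the pericentral and 24.4 in the periportal group of WT, and 1234 and 14.6 in HKO. In WT, Arntl was 31.9 CPM in the periportal and 19.2 in the pericentral group, a quotient of 1.66 (1.45 to 1.91). Cry1 had a quotient of 2.02 (1.71 to 2.38), Clock of 1.58 (1.45 to 1.72) and Per2 of 1.87 (1.53 to 2.28) in the same library. Dbp ran the other way in WT, with 15.3 periportal and 23.1 pericentral, a quotient of 0.664 (0.567 to 0.778). Nr1d1 did so by less, with a quotient of 0.855 (0.789 to 0.925). In WT, therefore, Arntl, Clock, Cry1 and Per2 were higher on the periportal side and Dbp and Nr1d1 on the pericentral side.

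The zonal pattern in the HKO library was flatter for Arntl and turned for Dbp. Arntl had 10.4 CPM in the periportal and 8.77 in the pericentral group of HKO, a quotient of 1.19 (0.885 to 1.60). Dbp had 47.4 and 39.5, a quotient of 1.20 (1.04 to 1.38). The HKO over WT ratio of Dbp was thus 3.09 periportal and 1.71 pericentral, and the quotient of these ratios was 1.80 (1.46 to 2.23). For Tef the ratios were 1.92 and 1.33, and for Arntl 0.328 and 0.457, a quotient of 0.717 (0.517 to 0.995). Nr1d1 showed 1.20 and 1.15, with a quotient of 1.04 (0.921 to 1.18) that included 1. The balance differed between the libraries by 1.77 in the periportal, 1.19 in the middle and 1.04 in the pericentral group. The groups were cut by rank within each library, so groups of the same name were not matched in zonal makeup. In the pericentral group Glul had 412 CPM in WT and 1234 in HKO. Cyp2f2, a periportal marker used in the split, had 634 and 279 there. HKO barcodes were shallower, with medians of 8436 UMIs in the periportal and 3434 in the pericentral group, against 23532 and 22822 in WT. With only barcodes of at least 5000 UMIs in both libraries, a choice made after the data were seen, the periportal over pericentral quotient in HKO was 1.26 (1.07 to 1.49) for Dbp and 0.894 (0.639 to 1.25) for Arntl.

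**Figure D2:**
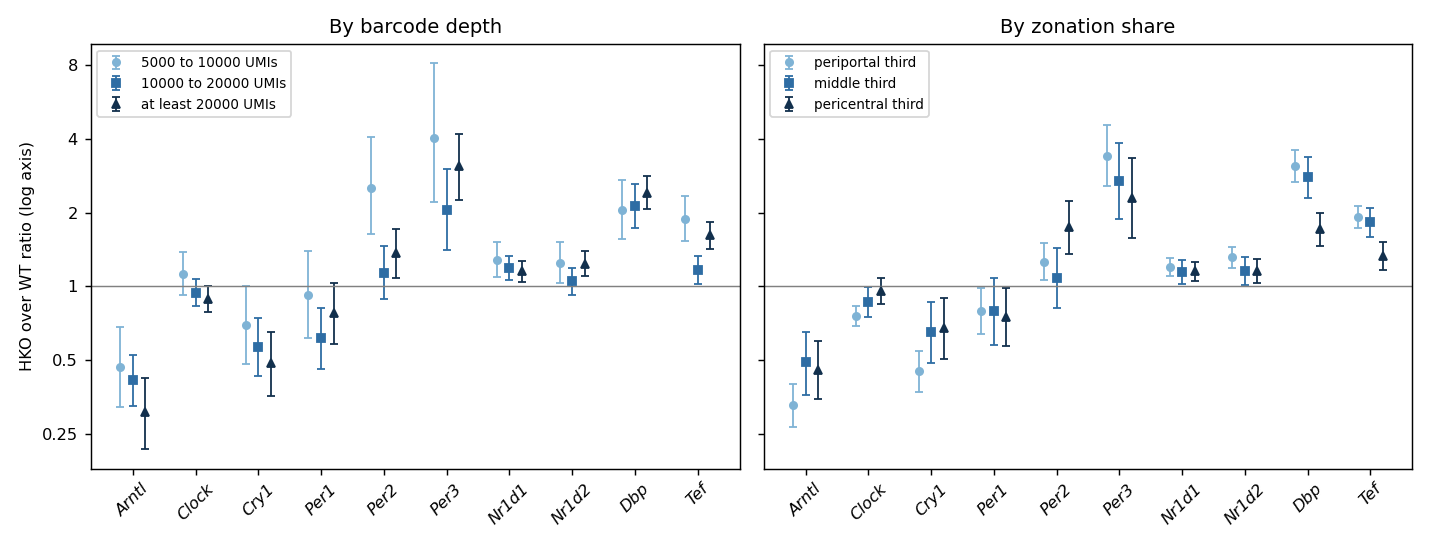
HKO over WT ratio of each clock gene (log axis) in hepatocyte-like barcodes, split by UMIs per barcode on the left and by zonation share on the right, with exact 95% intervals that cover counting error only and a line at 1. Arntl and Cry1 lie below 1 and Dbp, Tef and Per3 above 1 in every bin and zone, and Dbp is highest in the periportal group at 3.09.

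The share of barcodes with a UMI followed the levels once depth was made equal. With each barcode thinned to 5000 UMIs, which left out no WT and 1941 HKO barcodes, Arntl was detected in 11.3% of WT (9.91 to 12.9, exact binomial) and 4.55% of HKO barcodes (3.58 to 5.70). Without thinning, Arntl was found in 36.3% and 5.65%, while free RNA barcodes had it in 3.85% and 0.595%. Dbp was detected in 8.26% of thinned WT (7.04 to 9.62) and 18.2% of thinned HKO barcodes (16.3 to 20.2), and in 3.98% and 4.10% of unthinned free RNA barcodes. Nr1d1 was detected in 29.3% and 33.5%, and in 16.2% and 6.81% of unthinned free RNA barcodes. Free RNA barcodes were shallower, with medians of 2566 UMIs in WT and 900 in HKO, so their shares are not at equal depth with the thinned ones. No single barcode held more than 3.11% of the WT UMIs of any of the 10 genes in the class, and the barcode with most Arntl UMIs in HKO held 2.42% of them.

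Barcodes at free RNA depth, whose Alb level of 34799 and 30338 CPM was near that of hepatocyte-like barcodes, gave similar ratios. Arntl was 15.8 CPM in WT and 6.16 in HKO, which gave 0.390 (0.296 to 0.507). Cry1 had 0.527 (0.418 to 0.657), Tef 2.00 (1.82 to 2.19), Dbp 2.65 (2.36 to 2.98) and Per3 2.97 (2.21 to 3.96). Nr1d1 was level at 1.00 (0.923 to 1.09). Of the 7 clock genes above 10 CPM here, 4 passed 1.5-fold against 18.0% of all genes, whose median log2 ratio was −0.22. These droplets share their source with the hepatocyte-like barcodes and are no independent sample.

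In named non-hepatocyte classes the counts were far smaller. These include cholangiocyte-like barcodes, with 7.66% of the pooled UMIs in WT and 6.59% in HKO. Pooled over all named classes, Arntl had 93 UMIs in WT and 122 in HKO, or 30.2 and 31.6 CPM, a ratio of 1.05 (0.792 to 1.39). Its ratio in the pool was 2.56 times that in hepatocyte-like barcodes (1.89 to 3.46). Cry1 had 16.6 and 25.9 CPM in the pool, a ratio of 1.56 (1.11 to 2.24), and this was 2.75 times its hepatocyte value (1.91 to 3.96). Tef had 1.17 (0.874 to 1.56) in the pool, 0.677 times the hepatocyte value (0.507 to 0.903). Nr1d1 had 0.882 (0.704 to 1.10), 0.761 times the hepatocyte value (0.607 to 0.954). In the counts as they stand, Arntl, Cry1, Tef and Nr1d1 therefore differed between hepatocyte-like and pooled other barcodes by more than counting error, and for the other 6 genes the interval of this quotient held 1. These 4 of 10 stood against 34.4% of all genes with at least 30 UMIs in the pool, so the share was close to that of all genes. The order of Nr1d1 turned when free hepatocyte RNA was subtracted.

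Before any subtraction of free RNA, Dbp and Per3 were higher in HKO in the pool as well. Dbp had 29 UMIs in WT and 82 in HKO, or 9.42 and 21.2 CPM, a ratio of 2.26 (1.46 to 3.57). Per3 had 7 and 31 UMIs, a ratio of 3.53 (1.53 to 9.50). Clock had 0.931 (0.775 to 1.12) and Nr1d2 1.07 (0.870 to 1.33). In the pool 3 of the 10 genes passed 1.5-fold (Per3, Dbp and Cry1), against 24.1% of 11664 genes with at least 30 UMIs over both libraries, so this share was close to that of all genes. The balance differed by 0.29 on the log2 scale (−0.04 to 0.63), against 1.38 in hepatocyte-like barcodes. It differed by 0.59 (−0.06 to 1.25) in T and NK-like and by 0.79 (−0.49 to 2.08) in macrophage-like barcodes, where single genes had as few as 2 and 1 UMIs. T and NK-like barcodes gave 26.7% of the pooled UMIs in WT and 33.8% in HKO, and the part of such shifts in class makeup was not tested.

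Free hepatocyte RNA makes up part of these counts. Alb in the pool was 56.3% of its level in free RNA barcodes in WT and 35.6% in HKO. When the free RNA profile of each library was scaled by Alb, it gave nearly as many Dbp UMIs in WT as were counted, leaving 0.548 of 29, and left 22.2 of 82 in HKO. Arntl kept 65.6 of 93 UMIs in WT and 114 of 122 in HKO, with a quotient of 1.38 after subtraction. Cry1 kept 21.8 of 51 and 87.8 of 100, a ratio of 3.22. Nr1d1 kept 26.8 of 152 and 68.7 of 168, and its ratio turned from 0.882 to 2.04, above the hepatocyte value of 1.16. Tef kept 26.4 of 82 and 31.8 of 120, a ratio of 0.962. The 7 WT UMIs of Per3 did not exceed the scaled free RNA of 4.54 by more than counting error, and its ratio after subtraction was 6.60. The counts of Arntl and Cry1 in the pool were thus mostly above the free RNA in HKO, while those of Dbp and Per3 in WT were not above it by more than counting error.

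Single classes gave ratios with wide intervals. Arntl had 35 and 45 UMIs in T and NK-like barcodes, a ratio of 0.811 (0.510 to 1.30), and 27 and 32 in endothelial-like barcodes, a ratio of 1.16 (0.676 to 2.02). Relative to hepatocyte-like barcodes these were 1.98 (1.25 to 3.15) and 2.85 (1.67 to 4.84) times higher. Nr1d1 had 36 and 19 UMIs in T and NK-like barcodes, or 43.7 and 14.6 CPM, a ratio of 0.333 (0.180 to 0.596). In endothelial-like barcodes it had 34 and 59 UMIs, a ratio of 1.70 (1.10 to 2.68), and Nr1d2 had 25 and 50, a ratio of 1.96 (1.19 to 3.31). In T and NK-like barcodes 2 of 7 genes with at least 30 UMIs passed 1.5-fold (Nr1d1 and Tef), against 28.1% of all genes, and in endothelial-like barcodes 2 of 5, against 24.8%. In macrophage-like barcodes 2 of 3 passed (Nr1d1 at 1.63 and Nr1d2 at 0.505), against 30.2%, with counts of 9 to 25 UMIs. In endothelial-like barcodes the WT counts of neither Nr1d1 nor Nr1d2 exceeded the scaled free RNA (24.3 and 16.4 UMIs) by more than counting error, and the ratios after subtraction were 4.18 and 3.80. The same was true of Tef in T and NK-like barcodes, with 13 UMIs against 12.7 in WT and 31 against 23.8 in HKO. Scaled free RNA gave 28.6 of the 36 WT Nr1d1 UMIs in T and NK-like barcodes and 26.8 in HKO, more than the 19 counted there. In macrophage-like barcodes Alb was 86.9% in WT and 70.4% in HKO of its level in free RNA barcodes. There 0 of the 10 genes exceeded the scaled free RNA by more than counting error in WT, against 17.1% of all 13293 genes with a UMI. In HKO 2 did so (Nr1d1 and Dbp), against 31.9%.

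**Figure D3:**
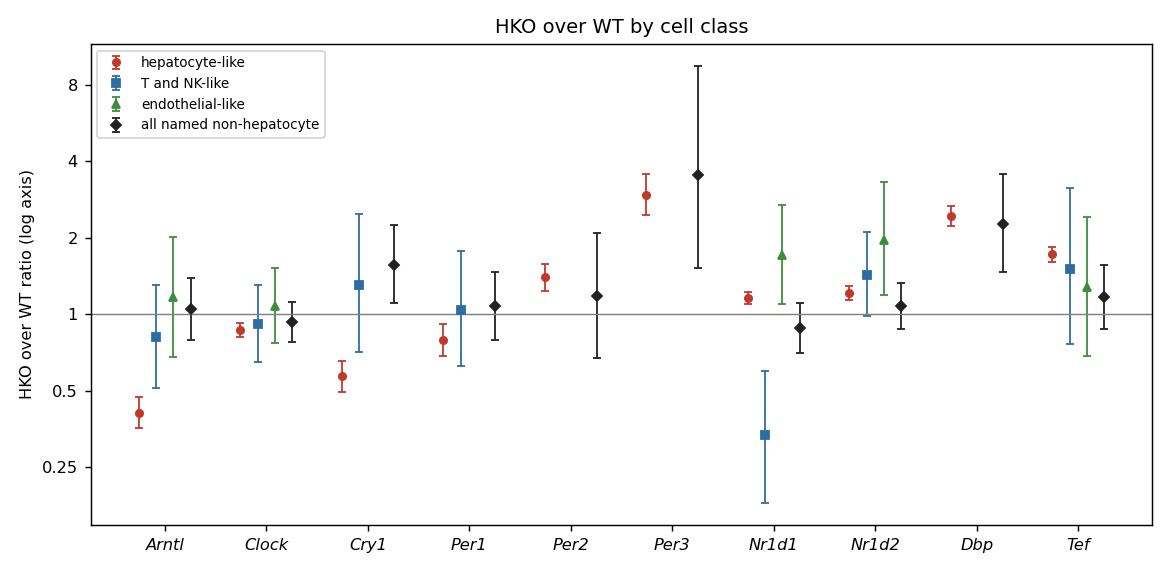
HKO over WT ratio of each clock gene (log axis) in hepatocyte-like, T and NK-like, endothelial-like and all named non-hepatocyte barcodes, for genes with at least 30 UMIs over both libraries, with exact 95% intervals that cover counting error only. Arntl and Cry1 lie below 1 in hepatocyte-like barcodes, at 0.409 and 0.569, and at 1.05 and 1.56 in the pooled other classes, while Dbp lies above 2 in both.

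Other genes of the clock and its outputs were read from lists of the pathway. Of 39 listed genes beyond the 10, 30 were above 10 CPM in hepatocyte-like barcodes. Of these, 4 were at least 1.5-fold higher in HKO, 7 at least 1.5-fold lower and 19 neither, against 2.36% higher and 4.30% lower of all genes. Among the core genes, Bhlhe40, which encodes the E-box repressor DEC1, had 151 CPM in WT and 88.9 in HKO, or 0.587 (0.560 to 0.616). Nfil3, whose product E4BP4 opposes DBP and TEF at D-boxes, had 39.7 and 23.3, a ratio of 0.586 (0.533 to 0.644). Nfil3 is, like Arntl and Cry1, a known target of REV-ERB. Hlf, the remaining PAR bZIP gene, had a ratio of 1.27 (1.21 to 1.34), and all 3 of this family were above 1, against 46.6% of all genes, with a median log2 ratio of 0.79. Hlf was below 1 elsewhere, at 0.840 (0.778 to 0.907) in free RNA barcodes and 0.698 (0.558 to 0.871) in the pooled non-hepatocyte classes. Cry2 had 1.20 (1.09 to 1.32). Rora, which encodes an activator that competes with REV-ERB, had 0.930 (0.895 to 0.966). Ciart and Bhlhe41, both below 10 CPM, had 1.11 and 2.34.

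Among 9 clock kinases, ubiquitin ligases and cofactors analysed, Usp2, a deubiquitinase gene with a strong daily rhythm, was the single one beyond 1.5-fold, at 1.77 (1.57 to 1.98), against 6.66% of all genes. Of 16 rhythmic liver outputs analysed, 3 were higher and 5 lower by that measure, against 2.36% and 4.30% of all genes. Cyp7a1, the rate-limiting enzyme of bile acid synthesis and a target of DBP, had 20.2 CPM in WT and 64.6 in HKO, or 3.19-fold (2.94 to 3.46). The paper on these mice also describes Cyp7a1 as directly regulated by miR-33 and reports it upregulated in HKO livers. Upp2, a uridine phosphorylase, had 1.78 (1.71 to 1.86), and Nampt, which makes the NAD precursor, 1.55 (1.46 to 1.65). Rgs16, a regulator of G protein signalling, had 167 and 54.1 CPM, a ratio of 0.324 (0.305 to 0.343). Elovl3, a fatty acid elongase, had 0.366 (0.343 to 0.392), Lpin1, a phosphatidate phosphatase, 0.455 (0.433 to 0.477), and Tsku, a secreted protein, 0.459 (0.424 to 0.495). Tfrc, the transferrin receptor, had 0.573 (0.516 to 0.635). Several of these respond to feeding and to lipid as well as to the clock. Which of these, or the loss of miR-33, moved them was not tested.

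**Figure D4:**
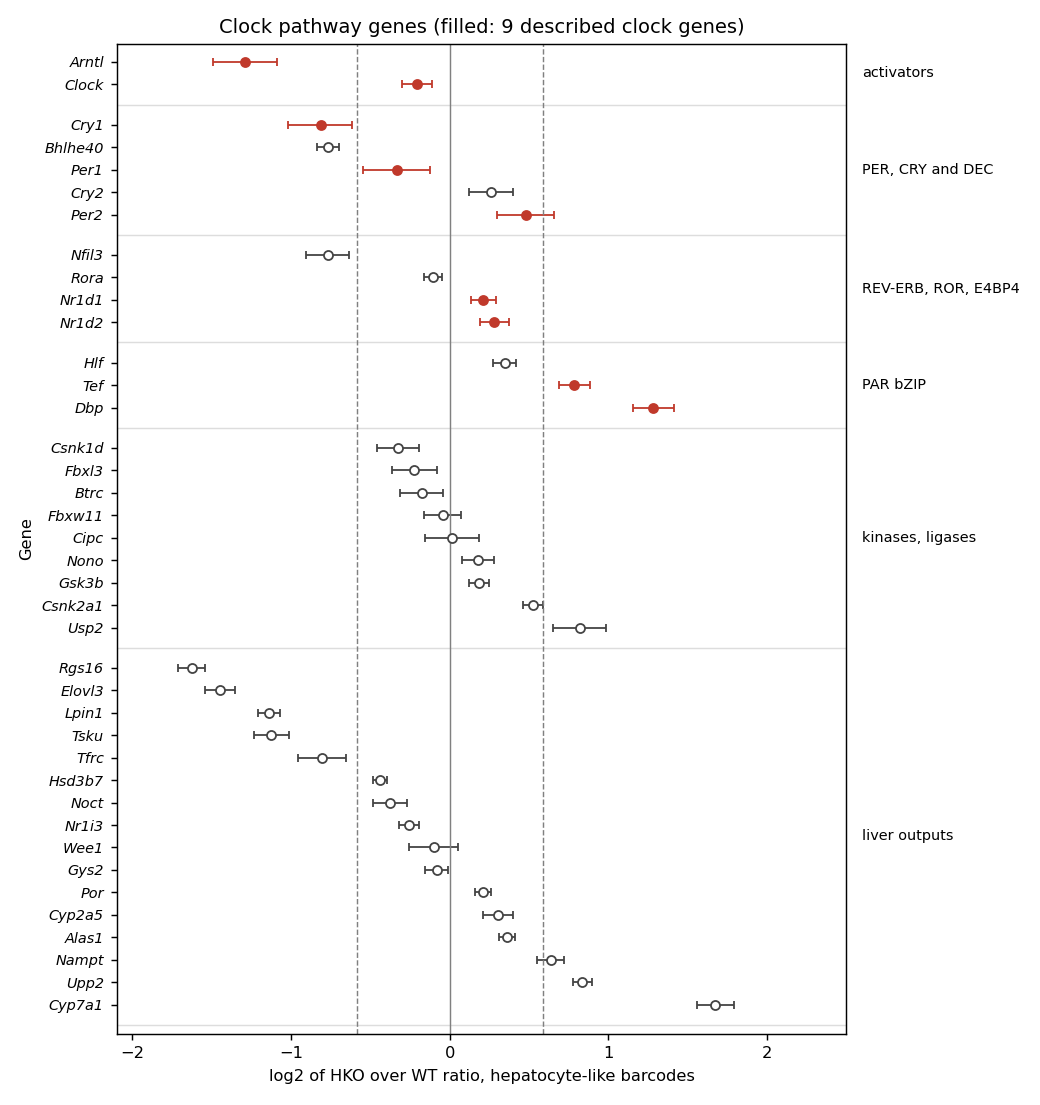
log2 HKO over WT ratio of the 39 clock pathway genes with a mean of at least 10 CPM in hepatocyte-like barcodes, grouped by role, with exact 95% intervals that cover counting error only. Filled points are the 9 clock genes above that level and open points the 30 other listed genes, dashed lines mark 1.5-fold, and values run from Rgs16 at −1.63 to Cyp7a1 at 1.67.

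The genes whose levels were most like those of Arntl and Dbp were sought over 10 values, 5 classes in each of the 2 libraries, among genes of at least 10 CPM in hepatocyte-like barcodes. The highest Pearson r of log2 levels with Arntl was that of Fkbp5 (0.952), followed by Tex2, Zfp410, Yars and H2-T23 (0.932). For Dbp it was Slc1a2 (0.962), then Phlda1, Oat, Tlcd1 and Onecut1 (0.90). Slc1a2 and Oat are perivenous hepatocyte genes, with ratios of 2.95 and 3.97 in hepatocyte-like barcodes. The 10 values share their library and its free RNA, so these correlations are descriptions.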

How the data were processed

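The deposited files hold raw UMI counts per gene and barcode, which the authors made with Cell Ranger 7.1.0 per the file headers from 10x 3′ version 2 libraries. The submitters' processing notes name the mm10 build, Seurat 3 and R 3.0. Barcodes with at least 500 UMIs, 300 genes and at most 50% mitochondrial UMIs were kept (29620 WT, 18247 HKO). Scrublet marked 0 doublets by its own threshold and therefore did not work. The barcodes with the highest scores were left out instead, at a rate of 0.8% per 1000 barcodes of the library. This left out 7019 WT and 2664 HKO barcodes, or 23.7% and 14.6% of those that passed the filters. Barcodes were clustered with scanpy 1.11.5 (2000 genes, 30 components, 15 neighbours, Leiden resolution 1.0). Clusters with at least 3 markers of a non-hepatocyte type, each detected in at least 10% of barcodes and 2-fold over the rest, were clustered again. Their parts were named by the same rule, and otherwise left mixed or unnamed. All remaining clusters were taken as hepatocyte-like or free RNA without a rule on hepatocyte markers. Class names were rebuilt and can differ from those of the study. The remaining clusters were divided into hepatocyte-like and free RNA barcodes at 2 times the commonest depth (5141 UMIs in WT, 1626 in HKO).

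UMIs were summed per class and library and scaled by the class total to counts per 1000000 (CPM). With 1 library per genotype no test was run. Ratios carry exact intervals conditional on the summed counts, and balances and quotients of ratios carry intervals from Poisson variances of log counts. Genes with a mean of at least 10 CPM were analysed in hepatocyte-like and free RNA barcodes, and genes with at least 30 UMIs over both libraries elsewhere. A count of 0 was set to 3 for a ratio. Ratios were checked on simulated counts. The pathway genes named are the core genes of the list, except 1 gene of that list that is not reported here, and the others beyond 1.5-fold. The 10 genes, the lists and the tests were chosen with earlier results of these data known. The WT barcode sequences were not used here, so barcodes shared by the libraries were not counted. TMM factors for 1 alternative came from edgeR 4.0.16.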

Additional observations from a re-analysis of the deposited data

Results flagged for a closer look

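Nr1d1 in T and NK-like barcodes lay on the other side of 1 from its value in hepatocyte-like barcodes, at 0.333 (0.180 to 0.596) against 1.16, with 36 UMIs in WT and 19 in HKO. Cry1 in all named non-hepatocyte barcodes stood at 1.56 (1.11 to 2.24) against 0.569 in hepatocyte-like barcodes. With 1 library per genotype neither difference between cell classes was tested across animals. Free hepatocyte RNA scaled by Alb gave 28.6 of the 36 WT and 26.8 HKO UMIs of Nr1d1 in T and NK-like barcodes, and its part in these values was not tested further.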

How the results depend on the processing

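No paired analysis was possible because each genotype is 1 library without replicates, and for the same reason no library could be left out. Over 12 alternatives of depth, doublets, filters, clustering, weighting and scaling, the ratio in hepatocyte-like barcodes ran from 0.275 to 0.446 for Arntl, from 0.366 to 0.579 for Cry1, from 2.17 to 2.55 for Dbp, from 1.59 to 1.86 for Tef and from 1.02 to 1.19 for Nr1d1. None of the 10 genes changed direction under these 12. The difference in balance ran from 1.30 to 1.68, the latter with barcodes thinned to 1500 UMIs (1.675 against 1.38). With a mean of at least 50 CPM in place of 10, 4 clock genes were analysed and 1 passed 1.5-fold, against 8.41% of all genes, and 8 of the pathway genes, clock genes included, in place of 15, since fewer genes were tested. With at least 10 UMIs in place of 30 in the 3 other classes, 11 of 22 values passed 1.5-fold, against 35.1% over all genes, in place of 6 of 15, against 27.3%. Within single clusters, added after the data were seen, the log2 ratio of Per1 turned to 0.75 in cluster 6 and 0.20 in cluster 11, and that of Cry1 to 0.16 in cluster 6. Nr1d2 moved from 0.28 to 1.57 in cluster 6 and 1.10 in cluster 10, Per2 from 0.48 to 1.75 in cluster 6 and 1.01 in cluster 11, and Per3 from 1.56 to 2.33 in cluster 6. Low counts limit the values in the named non-hepatocyte classes.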
